A study of Homo sapiens with 6 samples.

Results

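YAP1 and WWTR1, the genes of the YAP/TAZ coactivator pair, TEAD1 and TEAD4, which encode DNA-binding partners of YAP and TAZ, and 6 genes known as targets or regulators of the pathway (CCN1, CCN2, ANKRD1, AMOTL2, AJUBA and ESM1) were followed in DU-145 cells, a human prostate cancer line derived from a brain metastasis. All cells carried a doxycycline-inducible short hairpin against MUC1 and were given interferon-gamma at 10 ng/ml for 24 hours. DOX-positive cultures had doxycycline for 7 days and DOX-negative cultures had vehicle for 7 days. The genes were chosen by symbol, and all 10 were found among the 60662 genes of the count table, each on a single row under its current symbol. All 10 passed the low-count filter that left 24695 genes for testing. At an edgeR adjusted p under 0.05, 8 of the 10 genes were higher and 2 were lower in the DOX-positive than in the DOX-negative libraries, where 56.5% of all tested genes were called, 27.6% higher and 28.9% lower. With libraries scaled by their totals alone, 5 of the 10 were called higher and 2 lower. The known targets did not move as a block: ESM1, ANKRD1 and CCN1 rose 49.2-fold, 2.47-fold and 1.58-fold, CCN2 fell 2.02-fold, and AMOTL2 and AJUBA changed by less than 1.2-fold.

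YAP and TAZ do not bind DNA themselves and reach their target genes mainly through TEAD proteins. In the Hippo pathway the kinases STK3 and STK4, with the scaffold SAV1, activate LATS1 and LATS2, with MOB1A or MOB1B, and the LATS kinases phosphorylate YAP and TAZ, which keeps them out of the nucleus and promotes their breakdown. Activity is thus set largely by phosphorylation and by the location of the proteins, which read counts of RNA do not measure. CCN1 and CCN2 are used as standard readouts of YAP/TAZ activity in epithelial and cancer cells, and both genes also respond to SRF and its MRTF coactivators.

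All cells stably carried a tetracycline-inducible vector with a short hairpin against MUC1, the gene of a transmembrane mucin, and all were stimulated with interferon-gamma at 10 ng/ml for 24 hours. The 3 DOX-positive cultures had been given doxycycline for 7 days, which switches the hairpin on, and the 3 DOX-negative cultures had been given vehicle for 7 days. Whether the line is a pool or a single clone is not given in the sources used here, and no cells with doxycycline and a control hairpin were analysed here, so that effects of doxycycline and of the hairpin cannot be told apart. MUC1 itself read 1.53, 1.31 and 1.32 CPM (read counts scaled to library size) in the DOX-positive libraries, against 20.4, 21.8 and 22.2 CPM in the DOX-negative libraries, as the labels say. Libraries held 105358357 to 150921436 reads in DOX-positive cells and 87739734 to 138844816 reads in DOX-negative cells. At these depths a count of 3 reads, the limit that a count of 0 allows, corresponded to 0.0204 to 0.0328 CPM.

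The epithelial identity of the line was visible in both groups: EPCAM, KRT8, KRT18, CDH1 and KRT19 were all detected and KRT5 had no reads. All 5 of these epithelial markers that were tested rose (edgeR adjusted p under 0.05), where 27.6% of all tested genes were called higher. Their summed level was 2261 to 2350 CPM in DOX-positive libraries and 813 to 864 CPM in DOX-negative libraries. The part of this shift in the results below was not tested. KLK3, which encodes prostate-specific antigen, had no reads in any library, as is known for DU-145.

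The promoters of targets that moved in opposite directions were compared for the TEAD element, written here as CATTCC on either strand (GGAATG on the other). RefSeq promoter windows on GRCh38.p14, which run from 250 bases before to 50 bases after a transcription start, were matched for 7 of the 10 genes, and CCN1, TEAD1 and TEAD4 were not used here. The element was present in 5 of the 10 windows of these 7 genes (YAP1, CCN2, ANKRD1, and 1 of 2 starts each of AMOTL2 and AJUBA), and in 14.03% of 35116 promoter windows of the same length. CCN2, which fell, had 3 matches, beginning 169, 104 and 95 bases before the start. ANKRD1, which rose, had 2, beginning 220 and 128 bases before the start. The downstream of the 2 AMOTL2 windows had 1 match, 69 bases before its start, and ESM1 had none in its window. The ANKRD1 window also held a match (TGATTCA) to TGANTCA, a loose AP-1 pattern that allows any middle base. Both strands were searched, and 7.71% of windows held this loose pattern. None of the windows held the CArG box bound by SRF, present in 1.29%. These 4 windows are shown because they belong to the target that fell, a target that rose, a target that hardly changed and the gene with the largest change; the TEAD element is in capitals.
CCN2, chr6:131951323-131951622, minus strand: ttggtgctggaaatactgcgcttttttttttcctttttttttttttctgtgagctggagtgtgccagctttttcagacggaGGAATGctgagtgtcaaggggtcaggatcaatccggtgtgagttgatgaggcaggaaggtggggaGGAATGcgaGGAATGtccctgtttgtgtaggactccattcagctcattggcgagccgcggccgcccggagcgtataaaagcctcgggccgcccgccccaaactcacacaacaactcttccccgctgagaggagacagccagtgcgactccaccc
ANKRD1, chr10:90921038-90921337, minus strand: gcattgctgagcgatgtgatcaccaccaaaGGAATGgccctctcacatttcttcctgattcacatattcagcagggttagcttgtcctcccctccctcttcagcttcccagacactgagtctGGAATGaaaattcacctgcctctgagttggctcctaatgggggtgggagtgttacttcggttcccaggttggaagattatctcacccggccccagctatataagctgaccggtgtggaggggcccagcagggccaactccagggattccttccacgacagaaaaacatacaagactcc
AMOTL2, chr3:134374398-134374697, minus strand: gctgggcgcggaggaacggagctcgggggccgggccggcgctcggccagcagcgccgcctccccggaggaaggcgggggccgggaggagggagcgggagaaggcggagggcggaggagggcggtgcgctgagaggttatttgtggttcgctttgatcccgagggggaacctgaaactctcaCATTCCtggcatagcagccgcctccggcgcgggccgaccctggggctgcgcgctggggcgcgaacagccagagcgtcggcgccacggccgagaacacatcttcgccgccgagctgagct
ESM1, chr5:54985544-54985843, minus strand: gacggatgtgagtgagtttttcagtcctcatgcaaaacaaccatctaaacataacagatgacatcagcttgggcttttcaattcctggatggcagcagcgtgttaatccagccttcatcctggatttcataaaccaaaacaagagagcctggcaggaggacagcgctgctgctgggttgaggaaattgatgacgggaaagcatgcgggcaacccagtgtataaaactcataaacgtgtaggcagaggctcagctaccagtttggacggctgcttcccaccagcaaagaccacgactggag
A match of letters is a description of these windows and does not show that the element is bound.

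The coactivator genes both rose, by similar small amounts. YAP1 (ENSG00000137693.14, chromosome 11, 102110461 to 102233423, plus strand, GRCh38) read 279.0, 281 and 283 CPM in DOX-positive libraries, against 218, 217 and 228 CPM in DOX-negative libraries. Every DOX-positive library lay above every DOX-negative one, and the difference was 1.27-fold (log2 fold change 0.35, SE 0.03, edgeR adjusted p = 8.52e-08). WWTR1 (ENSG00000018408.14, chromosome 3, 149517235 to 149736714, minus strand), which encodes TAZ, read 369.8, 377 and 382 CPM in DOX-positive libraries, against 297, 282 and 307 CPM in DOX-negative libraries. The groups again did not overlap, and the difference was 1.28-fold (log2 fold change 0.35, SE 0.03, edgeR adjusted p = 2.20e-07). Neither gene passed the test for a change beyond 1.5-fold (edgeR glmTreat adjusted p = 1 for both). In bulk RNA a higher level in every cell and a larger share of cells with a high level cannot be told apart.

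The balance between the paralogues shifted by less than the spread between libraries. Scaled by gene length, YAP1 stood at 44.5 ± 0.324 CPM per kilobase in DOX-positive cells and 35.03 ± 0.932 in DOX-negative cells, and WWTR1 at 44.8 ± 0.744 CPM per kilobase in DOX-positive cells and 35.1 ± 1.54 in DOX-negative cells (SD, n = 3 each). YAP1 made up 49.9 ± 0.235% of the length-scaled sum of both genes in DOX-positive cells and 49.97 ± 0.652% in DOX-negative cells (exact two-sided permutation p = 0.9, the smallest possible with 3 against 3 being 0.1). The difference of -0.079 percentage points became 0.026 without DOX-positive replicate 3 and 0.29 without DOX-negative replicate 2.

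TEAD1 and TEAD4 moved less than the coactivators, and their calls depended on how libraries were scaled. TEAD1 (ENSG00000187079.18, chromosome 11, 12674591 to 12944483, plus strand) read 654, 664 and 667 CPM in DOX-positive libraries, against 602, 589.6 and 629 CPM in DOX-negative libraries. The groups were close but did not overlap, and the log2 fold change was 0.12 (SE 0.03, edgeR adjusted p = 0.00172). TEAD4 (ENSG00000197905.9, chromosome 12, 2959330 to 3040673, plus strand) read 25.7, 25.8 and 26.5 CPM in DOX-positive libraries, against 22.9, 21.8 and 22.3 CPM in DOX-negative libraries. Its log2 fold change was 0.22 (SE 0.04, edgeR adjusted p = 0.000154). With libraries scaled by their total alone, TEAD1 stood at -0.019 (edgeR adjusted p = 0.524, where the 14 alternatives gave 8.94e-06 to 0.524) and TEAD4 at 0.075 (edgeR adjusted p = 0.0969, where they gave 1.31e-06 to 0.0969). That scaling moved the median of all genes by -0.14 on the log2 scale.

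TEAD1 was by far the most abundant TEAD gene per length. It contributed 71.1 ± 0.427% of the length-scaled sum over TEAD1 to TEAD4 in DOX-positive cells and 69.9 ± 0.690% in DOX-negative cells (exact two-sided permutation p = 0.2). TEAD4 contributed 13.1 ± 0.0596% in DOX-positive cells and 12.1 ± 0.317% in DOX-negative cells (exact two-sided permutation p = 0.1). As a share of reads, without length scaling, these differences were 0.62 and 0.25 percentage points, against 1.19 and 1.03 with it. TEAD3 was lower (log2 fold change -0.19, SE 0.04, edgeR adjusted p = 0.00119), with 20.7 ± 0.692 CPM in DOX-positive cells and 23.7 ± 0.823 CPM in DOX-negative cells. TEAD2, with 20.8 ± 0.988 CPM in DOX-positive cells and 20.4 ± 0.742 CPM in DOX-negative cells, did not pass the test (log2 fold change 0.02, 95% interval -0.08 to 0.12, edgeR adjusted p = 0.719). With library totals alone TEAD2 was called lower (log2 fold change -0.12, edgeR adjusted p = 0.0300, the other alternatives giving 0.315 to 0.918). VGLL4, a protein that competes with YAP for TEAD, had a log2 fold change of 0.11 (edgeR adjusted p = 0.0271). It no longer passed with upper-quartile scaling (0.289), with library totals alone (0.415), with a filter of 1 CPM (0.0863), without DOX-positive replicate 2 (0.0777) and without DOX-negative replicate 2 (0.147), in a range of 0.00662 to 0.415. Its relatives VGLL1, VGLL2 and VGLL3 had no reads in any library.

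**Figure D1:**
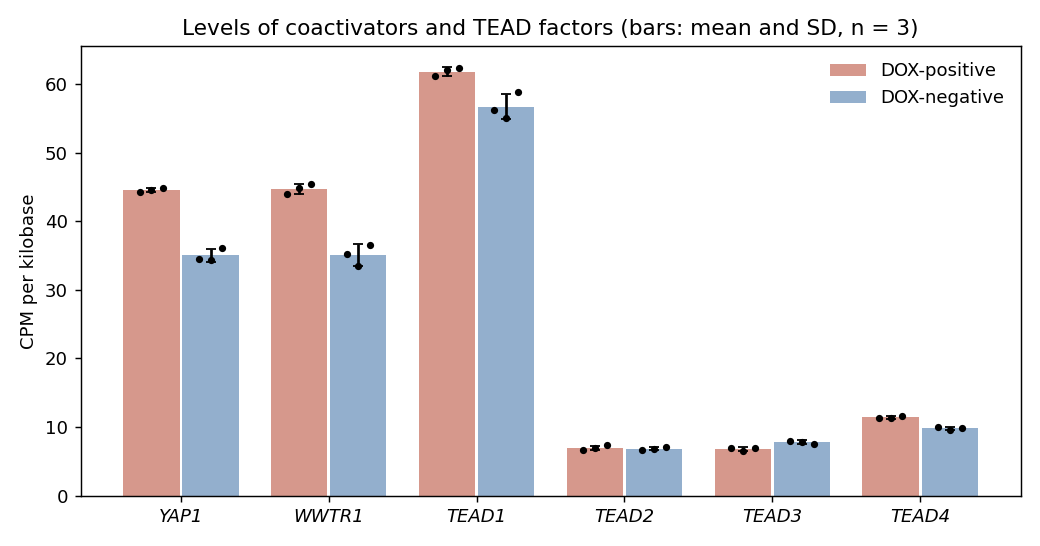
Length-scaled levels (CPM per kilobase) of YAP1, WWTR1 and the 4 TEAD genes in DOX-positive and DOX-negative cells. Bars are means, error bars SD over 3 libraries and points single libraries; YAP1 and WWTR1 stand level with each other in both groups and TEAD1 stands above the other TEAD genes.

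The matricellular genes CCN1 and CCN2 moved in opposite directions. CCN1 (ENSG00000142871.17, chromosome 1, 85580761 to 85583962, plus strand), also called CYR61, encodes a secreted integrin-binding protein. It read 731, 730.1 and 737 CPM in DOX-positive libraries, against 463, 463 and 469 CPM in DOX-negative libraries. Libraries of a group lay within a few CPM of each other and far from the other group, and the log2 fold change was 0.66 (SE 0.03, edgeR adjusted p = 2.41e-12). The change was past 1.5-fold by glmTreat (edgeR adjusted p = 0.0148), a call that was lost with upper-quartile scaling (0.492), library totals alone (1) and a filter of 1 CPM (0.115), where the 12 alternatives gave 0.00433 to 1.

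CCN2 (ENSG00000118523.6, chromosome 6, 131948176 to 131951373, minus strand), also called CTGF, encodes a secreted protein that promotes matrix production. It read 37.7, 34.3 and 35.9 CPM in DOX-positive libraries, against 73.6, 70.8 and 73.8 CPM in DOX-negative libraries. All 3 DOX-positive libraries were about equally low (log2 fold change -1.02, SE 0.04, edgeR adjusted p = 9.02e-13), and the fall was past 1.5-fold (edgeR glmTreat adjusted p = 1.21e-08). CCN2 made up 4.88 ± 0.220% of the length-scaled sum of CCN1 and CCN2 in DOX-positive cells and 14.1 ± 0.237% in DOX-negative cells. The groups did not overlap, which gives the smallest p that 3 against 3 allows (exact two-sided permutation p = 0.1). Among the other CCN genes, CCN3 rose by 0.65 on the log2 scale to 3.45 ± 0.358 CPM in DOX-positive cells, against 2.20 ± 0.0624 CPM in DOX-negative cells. CCN5 fell by 0.72 on the log2 scale to 7.25 ± 0.323 CPM in DOX-positive cells, against 11.9 ± 0.313 CPM in DOX-negative cells. CCN4 and CCN6 averaged at most 0.238 CPM in either group and did not pass the test (edgeR adjusted p = 0.220 and 0.416), although CCN4 passed without DOX-negative replicate 2 (log2 fold change 1.83, edgeR adjusted p = 0.0218, the others reaching up to 0.512).

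ANKRD1 (ENSG00000148677.6, chromosome 10, 90912096 to 90921276, minus strand) encodes an ankyrin repeat protein of the nucleus and, in muscle, of the sarcomere. It read 82.1, 80.4 and 80.04 CPM in DOX-positive libraries, against 32.9, 34.0 and 31.3 CPM in DOX-negative libraries. No library came near the other group (log2 fold change 1.30, SE 0.04, edgeR adjusted p = 2.24e-14), and the rise was past 1.5-fold (edgeR glmTreat adjusted p = 7.15e-12). ANKRD1 ranked 510 of the 24695 tested genes by log2 fold change, counted from the highest.

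ESM1 (ENSG00000164283.13, chromosome 5, 54977864 to 55022671, minus strand) encodes endocan, a secreted proteoglycan best known from endothelial cells. It read 5.94, 6.69 and 5.93 CPM in DOX-positive libraries, against 0.161, 0.109 and 0.109 CPM in DOX-negative libraries. Behind these values were 626, 966 and 588 reads in DOX-positive libraries, against 16, 16 and 10 reads in DOX-negative libraries, which lie above the floor of 3 reads but make the fold imprecise. The log2 fold change was 5.62 (SE 0.17, 95% interval 5.27 to 5.98, edgeR adjusted p = 6.84e-14), the fifth highest of all genes tested. Of 9 endothelial markers, 5 passed the count filter. KDR fell to 0.125 ± 0.0260 CPM in DOX-positive cells, against 0.425 ± 0.0767 CPM in DOX-negative cells (edgeR adjusted p = 0.000221), and PECAM1, VWF, CLDN5 and ESAM did not pass the test. Their summed level was 2.51 to 2.90 CPM in DOX-positive libraries and 3.01 to 3.11 CPM in DOX-negative libraries, most of it from ESAM, and none was at 0 in all libraries.

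AMOTL2 (ENSG00000114019.14, chromosome 3, 134355874 to 134375479, minus strand) encodes an angiomotin-like protein that binds YAP and is itself a YAP target. It read 286, 284 and 289.7 CPM in DOX-positive libraries, against 277, 255 and 262 CPM in DOX-negative libraries. The groups were separated by less than the spread of the DOX-negative libraries (log2 fold change 0.11, SE 0.03, edgeR adjusted p = 0.0104), and the call was lost with upper-quartile scaling (log2 fold change 0.054, adjusted p = 0.140) and with library totals alone (-0.030, adjusted p = 0.422), in a range of 0.000324 to 0.422. AJUBA (ENSG00000129474.16, chromosome 14, 22971174 to 22982642, minus strand) encodes a LIM protein that inhibits the LATS kinases. It read 84.1, 86.1 and 86.03 CPM in DOX-positive libraries, against 100.2, 97.2 and 96.6 CPM in DOX-negative libraries. AJUBA was lower in every DOX-positive library, by a small amount (log2 fold change -0.20, SE 0.03, edgeR adjusted p = 4.24e-05).

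**Figure D2:**
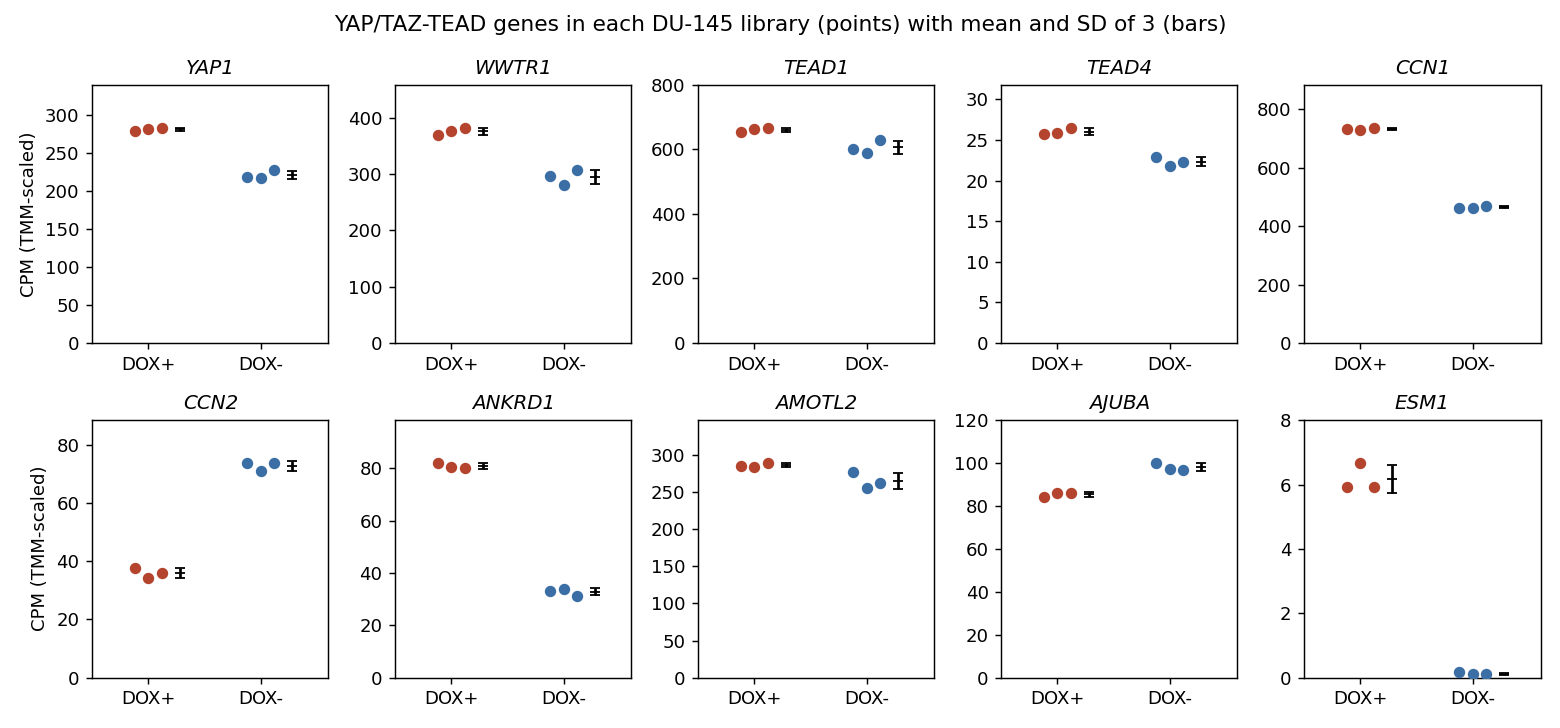
TMM-scaled CPM of the 10 genes in each library, DOX-positive on the left and DOX-negative on the right of each panel. Points are libraries and bars mean and SD of 3; CCN2 and AJUBA are lower in DOX-positive libraries and the other 8 higher, with each vertical axis starting at 0.

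Read against the whole table, the count of changed genes says little by itself. At an adjusted p under 0.05, 56.5% of all tested genes passed the edgeR test, so that the calls of the 10 genes stand on a high background. In TMM-scaled CPM, the 3 values of a group lay clear of the other 3 for all 10 genes and for 62.4% of all tested genes. This separation was not examined under other scalings. A change past 1.5-fold by glmTreat was called for 4 of the 10 (ESM1, ANKRD1 and CCN1 higher, CCN2 lower), where 13.4% of tested genes were called. The median log2 fold change was 0.28 over the 10 genes and -0.04 over all tested genes. With library totals alone the split over all genes was 4689 higher and 9579 lower, against 6825 and 7132 with TMM scaling.

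**Figure D3:**
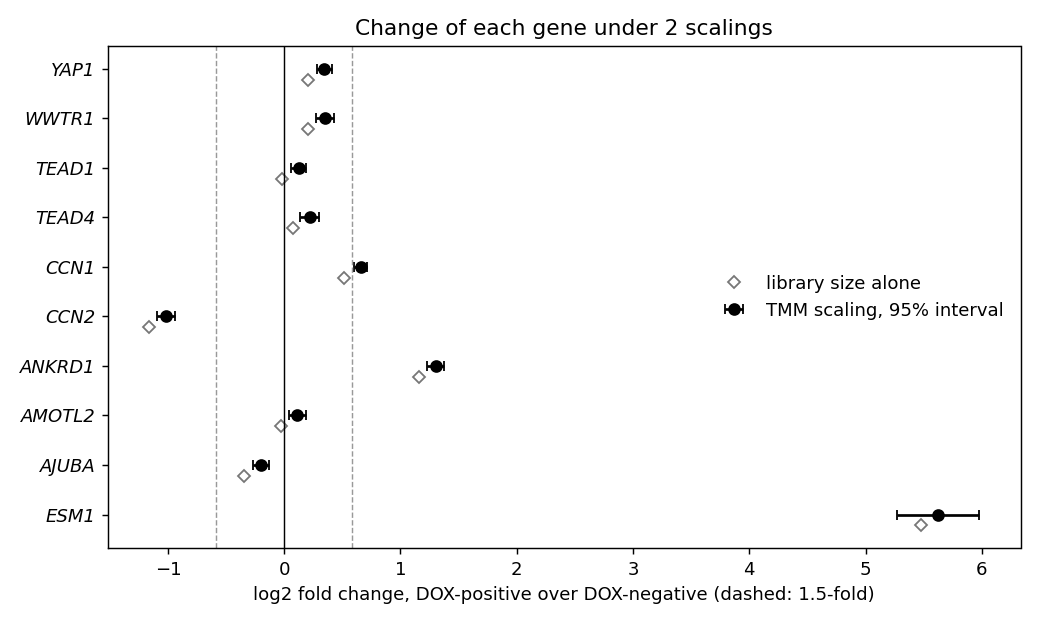
Log2 fold change of each gene, DOX-positive over DOX-negative, with TMM scaling (black, with 95% interval) and with library totals alone (open diamonds). ESM1 lies far to the right at 5.62, CCN2 is on the left at -1.02, and TEAD1 and AMOTL2 change side of 0 between the scalings.

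Per length, the order of the genes in DOX-positive cells ran from CCN1 (299.9 ± 1.39 CPM per kilobase) through TEAD1 (61.8 ± 0.613), AMOTL2 (47.9 ± 0.491), WWTR1, YAP1, ANKRD1 (40.9 ± 0.558), CCN2 (15.4 ± 0.734), AJUBA (14.5 ± 0.190) and TEAD4 (11.4 ± 0.188) to ESM1 (2.30 ± 0.161). In DOX-negative cells the order of levels was CCN1 (190.3 ± 1.40 CPM per kilobase), TEAD1 (56.7 ± 1.88), AMOTL2 (44.3 ± 1.83), WWTR1, YAP1, CCN2 (31.1 ± 0.713), AJUBA (16.7 ± 0.320), ANKRD1 (16.5 ± 0.678), TEAD4 (9.82 ± 0.231) and ESM1 (0.0470 ± 0.0111). Only WWTR1 and YAP1 overlapped as neighbours in DOX-positive cells, and WWTR1 with YAP1 and AJUBA with ANKRD1 overlapped in DOX-negative cells. ANKRD1 thus stood above CCN2 in DOX-positive cells and below it in DOX-negative cells. The gene length is the single value per gene in the deposited table, so a switch between transcripts would not be seen. Genes annotated over the same positions on either strand had at most 0.168% of the reads of the gene they overlap, the highest being WWTR1-AS1 over WWTR1.

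The upstream pathway was not uniform either. In the core kinase cassette, 4 of 7 genes rose and 3 fell, around a median log2 change of 0.12, and the counts were 2 and 3 with library totals alone. Among all tested genes, 27.6% were called higher and 28.9% lower by the same rule. Only 1 gene of the cassette, SAV1, was past 1.5-fold by glmTreat, where 13.4% of all tested genes were. SAV1, the scaffold of the STK3 and STK4 kinases, rose by 0.73 on the log2 scale (SE 0.04, edgeR adjusted p = 4.24e-11), with 230.3 ± 1.99 CPM in DOX-positive cells and 139.1 ± 6.53 CPM in DOX-negative cells. The paired LATS kinases diverged. LATS1 fell by 0.60 on the log2 scale to 67.9 ± 1.34 CPM in DOX-positive cells, against 102.8 ± 4.52 CPM in DOX-negative cells (edgeR adjusted p = 4.12e-10), and LATS2, itself a YAP target, rose by 0.26 to 128.7 ± 0.916 CPM in DOX-positive cells, against 107.5 ± 5.12 CPM in DOX-negative cells (edgeR adjusted p = 1.25e-05). MOB1A, an activator of LATS kinases, was lower (log2 fold change -0.27, edgeR adjusted p = 6.86e-06). Its paralogue MOB1B, named here after its values were seen, was higher (log2 fold change 0.19, edgeR adjusted p = 0.000307).

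Of 21 upstream regulators, 15 rose and 5 fell, around a median log2 change of 0.39, and 4 rose and 3 fell past 1.5-fold, where 56.5% and 13.4% of all tested genes were called by the same rules. Over the 14 alternatives, 11 to 15 of these regulators were called higher and 4 to 5 lower. FRMD6, a membrane-associated FERM protein of the pathway, had the largest rise, to 251 ± 8.57 CPM in DOX-positive cells, against 96.6 ± 2.75 CPM in DOX-negative cells (log2 fold change 1.38, edgeR adjusted p = 1.80e-14). NF2, which encodes the tumour suppressor merlin, rose by 0.64 on the log2 scale to 322 ± 4.78 CPM in DOX-positive cells, against 206 ± 6.90 CPM in DOX-negative cells (edgeR adjusted p = 6.49e-11). Members of the WWC family moved apart, WWC1 (also called KIBRA) rising by 0.62 and WWC3 falling by 0.95 as log2 changes (edgeR adjusted p = 3.12e-11 and 4.34e-13). FAT1, an atypical cadherin, was lower (log2 fold change -0.77, edgeR adjusted p = 2.38e-12). FAT4 was higher (log2 fold change 0.72, edgeR adjusted p = 3.96e-11). DCHS1 had the largest change of the list (log2 fold change -1.73, edgeR adjusted p = 0.000118). It averaged only 0.137 CPM in DOX-positive cells and 0.459 CPM in DOX-negative cells. FAT4 and DCHS1 are named here after their values were seen. Relatives of AMOTL2 and AJUBA were lower in 3 of 4 cases, where 28.9% of all tested genes were called lower. Their median log2 change was -0.51. AMOT fell by 0.80, AMOTL1 by 0.22 and WTIP by 1.41 as log2 changes (edgeR adjusted p = 2.89e-08, 9.33e-06 and 3.82e-08), whereas LIMD1 had a log2 fold change of 0.11 (edgeR adjusted p = 0.0551), a value past the threshold under 6 of the 14 alternatives (range 0.00188 to 0.602).

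A wider set of genes often used as a YAP/TAZ target signature, without the 10 genes above, also went both ways. Of 17 tested genes 6 rose, 8 fell and 3 did not pass, around a median log2 change of 0.07. LATS2, also in the core kinase cassette, and PTPN14, also an upstream regulator, are counted again here. The background for this list and for the MRTF and SRF targets below was 27.6% of all tested genes called higher and 28.9% lower. F3, which encodes tissue factor, rose by 1.77 on the log2 scale to 280.2 ± 4.12 CPM in DOX-positive cells, against 82.0 ± 2.85 CPM in DOX-negative cells (edgeR adjusted p = 7.81e-16). The ectonucleotidase gene NT5E rose by 1.17 and the membrane repair gene MYOF by 0.55 on the log2 scale, whereas ASAP1, a GTPase-activating protein gene, fell by 0.75 (edgeR adjusted p = 7.88e-15, 3.40e-12 and 3.39e-11). Targets of MRTF and SRF were higher for 7 of 15 tested genes and lower for 5, around a median log2 change of 0.17. The LIM-domain gene FHL2 rose by 1.42 on the log2 scale to 80.2 ± 1.15 CPM in DOX-positive cells, against 29.97 ± 0.602 CPM in DOX-negative cells. The cytoplasmic actin genes ACTB and ACTG1 rose by 0.72 and 0.67 and the adhesion plaque gene VCL by 0.56 as log2 changes (edgeR adjusted p = 2.80e-15 for FHL2, 1.70e-13 for ACTB, 2.43e-13 for ACTG1 and 1.90e-10 for VCL). The largest change of this list went the other way: TPM2, which encodes a tropomyosin and is named here after its values were seen, fell by 1.54 on the log2 scale to 2.04 ± 0.110 CPM in DOX-positive cells, against 5.92 ± 0.970 CPM in DOX-negative cells (edgeR adjusted p = 1.25e-08).

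**Figure D4:**
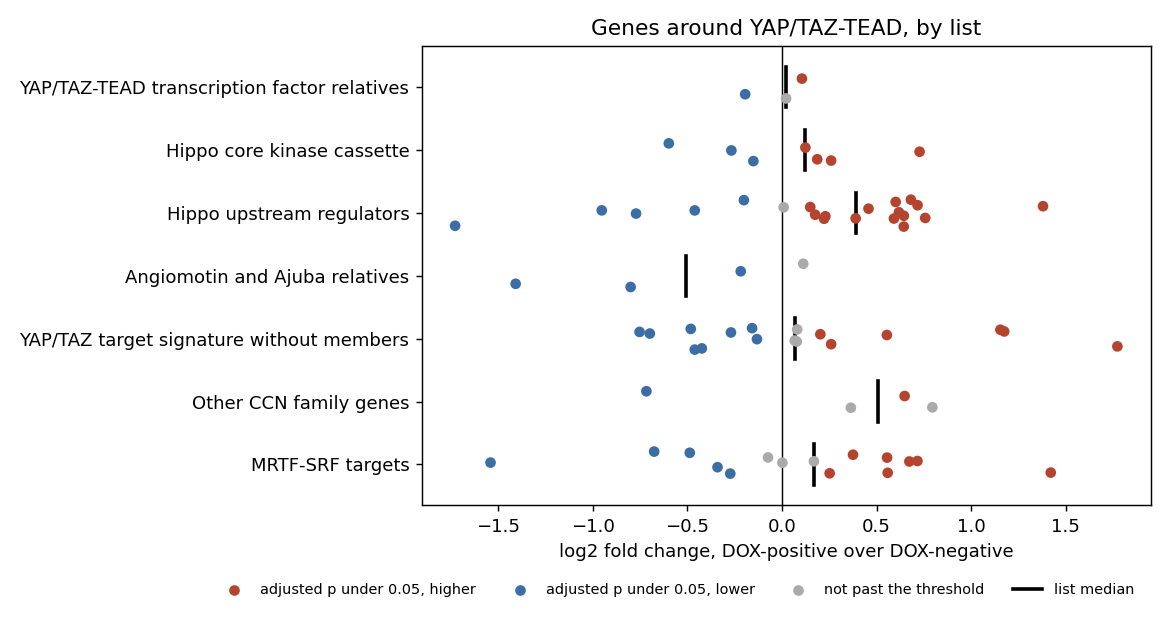
Log2 fold changes, DOX-positive over DOX-negative, of the tested genes of 7 lists around the pathway. Each point is a gene, coloured by its edgeR call at an adjusted p under 0.05, and black bars are list medians; upstream regulators lie mostly to the right, and target genes spread to both sides of 0.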

How the data were processed

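Polyadenylated RNA of 3 DOX-positive and 3 DOX-negative cultures was sequenced from stranded libraries, per the labels' protocols. The deposited table gives unnormalized read counts and 1 length per gene. Per the submitters' processing notes, the tools were STAR 2.7.9a, CASAVA 1.8.2 and DESeq2 1.24.0, on GRCh38.p7, with no role stated. How reads were counted, on which annotation and with which strand setting is not given in the sources used here. Groups and replicate numbers came from the titles; no batch is stated, and p-values cover only the variation among these 6 cultures, which may be technical. Chi-square per degree of freedom between libraries was 6.40 to 20.8 within groups, so none agreed within sampling noise. Genes without a symbol (66) held 0.000516% of reads.

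The 10 genes and all lists were chosen with earlier results of these data known. Counts were tested over all genes with edgeR 4.0.16 in R 4.3.3 (quasi-likelihood test, group as the only term, filterByExpr minimum count 10 and total 15, TMM scaling, Benjamini-Hochberg threshold 0.05). A second rule used glmTreat with a null of up to 1.5-fold. Standard errors are |log2 fold change| over the square root of F, and intervals are at 95%. CPM values use TMM-scaled library sizes. These intervals rest on the spread among libraries; the floor of 3 reads covers counting error only, as reads carry no molecular identifiers. Shares used length-scaled values and exact permutation over libraries. Named genes were the 10, MUC1, 8 pathway genes given whatever their result, and up to 4 genes per list with the smallest p-values. MOB1B, FAT4, DCHS1 and TPM2 were added after their values were seen. Alternatives were other scalings and filters, DESeq2 1.42.0, limma-voom (limma 3.58.1), a replicate block and each library left out. Tests were run on simulated data first. Positions are from GENCODE 29 (GRCh38); figures used matplotlib 3.10.9.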

Additional observations from a re-analysis of the deposited data

How the results depend on the processing

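Under the 14 alternatives YAP1, WWTR1, CCN1, CCN2, ANKRD1, AJUBA and ESM1 kept their direction and their side of the 0.05 threshold. With library totals alone TEAD1 was -0.019, AMOTL2 -0.030, TEAD4 0.075, VGLL4 -0.037, TEAD2 -0.12 and LIMD1 -0.031 on the log2 scale, and 5 of the 10 genes were called higher; AMOTL2 was 0.054 and TEAD2 -0.038 with upper-quartile scaling, and TEAD2 was -0.016 with a filter of 1 CPM. Those scalings moved the median of all genes by -0.14 and -0.06. CCN1 was past 1.5-fold by glmTreat except with upper-quartile scaling (log2 fold change 0.60), library totals alone (0.51) and the 1 CPM filter (0.62), alternatives added after seeing the data. With 1 library left out the difference in the YAP1 share ran from -0.32 to 0.29 percentage points and the log2 fold change of TEAD2 from -0.0075 to 0.067. The cause of these moves was not tested beyond the scaling itself. The replicate block gave 6670 genes higher and 6833 lower and left 8 and 2 of the 10 genes called. Same-numbered libraries did not deviate together (r = -0.07, -0.03 and 0.01 across genes), no number marks a shared batch in the labels, and DOX-positive replicate 1 was closest to DOX-negative replicate 2 (r = 0.08), so the numbers were not taken as pairs. Depth limits ESM1 in DOX-negative cells, with 10 to 16 reads per library.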
